A study of Mus musculus with 10 samples.

Results

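The DNA replication and S phase set holds 49 genes of the 57010 in the count table. They were chosen by name for their roles in origin licensing, the replication fork, nucleotide supply and repair linked to replication. No measured value entered the rule, but the list was drawn up with earlier results of these data known. All 49 were matched by symbol, and all 49 passed the filter on low counts. They fall into 7 role classes. Origin licensing has 11 members, origin firing 10, polymerases and primase 7, the sliding clamp with its loader, single-strand binding and lagging-strand processing 9, nucleotide supply 5, chromatin 3 and repair 4.

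Cells copy their DNA in steps. The origin recognition complex, Cdc6 and Cdt1 load the Mcm2 to Mcm7 helicase onto origins in G1 phase. The Dbf4-dependent kinase Cdc7 and cyclin E with its kinase then help to switch the helicase on, by adding Cdc45 and the GINS complex. Primase, the replicative polymerases, the clamp PCNA and the enzymes that make deoxynucleotides carry S phase itself. Many of these genes are transcribed in waves by E2F factors late in G1, and their RNA is scarce in resting cells.

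RNA was sequenced from whole mammary tumours of mice that all carry the PyMT transgene, in which the MMTV promoter drives a viral oncogene mainly in mammary epithelium. The 5 KO libraries are labelled PyMT with RHBDL4 -/-, and the 5 WT libraries PyMT with RHBDL4 +/+. RHBDL4 is encoded by Rhbdd1 and cuts proteins within the membrane of the endoplasmic reticulum, as a member of the rhomboid protease family. All tumours were untreated and were taken 5 weeks after tumour onset, and the comparison asks how loss of the protease changes the tumour transcriptome.

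Depth ran from 27.4 to 35.0 M counts in KO libraries and from 25.7 to 43.3 M counts in WT libraries. Levels are given in CPM, counts per M (mega) counts of the library after scaling. Rhbdd1, the check of the labels, had 23.7, 16.2, 18.4, 14.2 and 18.0 CPM in KO replicates 1 to 5, against 47.5, 40.4, 35.7 and 35.5 CPM in WT replicates 1 to 4. These values were scaled without WT replicate 5. Scaled with all 10 libraries, WT replicate 5 had 25 CPM and the highest KO library 22.3 CPM. Every KO library lay below every WT library, and the log2 fold change in the 9 libraries was -1.14 ± 0.16 (SE) with an edgeR adjusted p of 0.113. WT replicate 5 stood apart from the other 9 libraries. Its 20 luminal markers summed to 181 CPM, against 5908 to 6985 CPM in WT replicates 1 to 4, although none of the 20 was at 0. Its 12 skeletal muscle markers summed to 139500 CPM and its 12 adipocyte markers to 32390 CPM, against at most 1544 and 3164 CPM in any other library. The tissue in that library therefore did not carry the epithelial markers of a mammary tumour at the level of the others, and the set and its classes are given with it (10 libraries) and without it (9 libraries). Values of single genes are from the 9 libraries unless all 10 are named. In whole tissue, fewer cells in S phase and less RNA per such cell cannot be told apart. Library names begin with the same number in KO replicates 3 and 4, in WT replicates 1 and 2 and in WT replicates 3 and 4, and its meaning is not stated. If the number marks an animal, libraries that share it are not independent, and the count of libraries overstates the replicates. The batch label differs in every library, so if it marks a batch, batch and group cannot be told apart.

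The promoters of several members carry exact words of the E2F motif, and 4 are shown because they stand for 3 steps of the pathway: helicase subunits (Mcm5, Mcm6), the loader (Cdc6) and the GINS complex (Gins3). Each run is the 200 bases before the transcription start in RefSeq on build GRCm38.p6, 5′ to 3′ on the strand of the gene. Capitals mark matches to TTTCCCGC, TTTGGCGC, TTTCGCGC or TTTGCCGC on either strand, and matches overlap in Mcm5 and Mcm6.
Mcm5 (chr8:75109309-75109508, plus strand): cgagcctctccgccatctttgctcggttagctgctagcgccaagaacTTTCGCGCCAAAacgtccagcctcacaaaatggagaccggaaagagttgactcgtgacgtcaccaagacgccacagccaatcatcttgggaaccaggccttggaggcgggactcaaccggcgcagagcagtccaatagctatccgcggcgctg
Mcm6 (chr1:128359706-128359905, minus strand): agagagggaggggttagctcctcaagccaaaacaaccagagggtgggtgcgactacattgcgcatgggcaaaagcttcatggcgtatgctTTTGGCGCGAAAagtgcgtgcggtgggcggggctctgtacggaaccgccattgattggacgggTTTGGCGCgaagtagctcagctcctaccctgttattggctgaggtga
Cdc6 (chr11:98907951-98908150, plus strand): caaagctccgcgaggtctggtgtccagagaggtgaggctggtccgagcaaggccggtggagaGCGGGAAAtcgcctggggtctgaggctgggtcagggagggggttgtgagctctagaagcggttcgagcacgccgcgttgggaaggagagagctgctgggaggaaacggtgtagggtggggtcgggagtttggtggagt
Gins3 (chr8:95633359-95633558, plus strand): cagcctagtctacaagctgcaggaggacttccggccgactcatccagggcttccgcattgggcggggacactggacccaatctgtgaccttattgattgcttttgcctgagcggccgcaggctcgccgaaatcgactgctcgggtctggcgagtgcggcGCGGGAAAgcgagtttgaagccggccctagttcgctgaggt

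Promoter windows of 300 bases around the start were found for 39 of the 49 members. At least 1 of the 4 E2F words lay in the windows of 14 of these 39 genes (35.9%), against 2.6% of the 27025 genes with a window. The 62 genes with a window from the other replication lists described further on held such a word in 24.2%, and the 24 genes of a mitosis list in 4.17%. The box CCAAT, the word bound by NF-Y, lay in 56.4% of the members, in 91.7% of the mitosis genes and in 41.1% of all genes. The word TTTGAA, the core of the cell cycle homology region (CHR), lay in 15.4% of the members, in 79.2% of the mitosis genes and in 20.2% of all genes. A match is a string of letters and not a bound site.

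**Figure D1:**
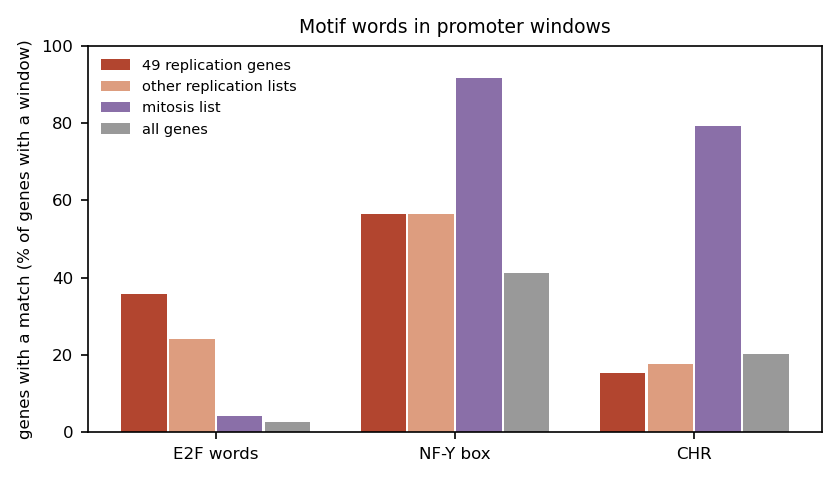
Share of genes (y axis, % of genes with a promoter window) with at least 1 match to the E2F words, the NF-Y box or the CHR word on either strand, for the replication genes (39 with a window), the other replication lists, the mitosis list and all genes. E2F words were found in 35.9% of the replication genes and 2.6% of all genes, and the CHR word in 79.2% of the mitosis genes.

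In the 9 libraries, all 49 replication genes had a lower fitted level in KO than in WT tumours. The median log2 fold change was -0.56, against 0.026 over all 19016 genes tested, of which the middle part (quartiles) ran from -0.19 to 0.25. Of all genes, 46.8% had a log2 fold change below 0. The members ran from -0.91 for Ccne1 to -0.055 for Rpa1. Their summed level was 1717 ± 369 CPM in KO (SD, n = 5) and 2481 ± 354 CPM in WT (SD, n = 4), or 69.2% of WT.

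No single member passed the test across all genes. The quasi-likelihood test of edgeR, with Benjamini-Hochberg adjustment, called 0 of the 49 members, where it called 0.0105% of all genes, and the adjusted p of the members ran from 0.138 (Gmnn) to 0.945 (Rpa1). At an unadjusted p under 0.05, 37 members (75.5%) were lower in KO and 0 higher, where 5.85% of all genes were lower. Where libraries with the same leading number were summed, 20 members were lower at that level, which 1044 of 21078 genes passed in either direction. DESeq2 called 9 members, all lower, where it called 1.42% of all genes lower. limma-voom with quality weights called 7 members, all lower, where it called 0.505% of all genes lower. DESeq2 and limma-voom both called Gins1, Gmnn, Prim2, Rrm2 and Ung. Blocked on the leading number, and without quality weights, limma-voom called 0 members and 0 genes. There 33 members were lower at an unadjusted p under 0.05, which 1182 of 19016 genes passed in either direction. The levels of 18 members did not overlap between the groups, all with KO below WT, where this held for 3.44% of all genes.

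In all 10 libraries the edgeR values lay closer to 0, except for Gins4 (-0.16, against -0.13 in the 9 libraries). A fitted level lower in KO was found for 46 members, where 56.2% of all genes were lower, and Rfc3, Chaf1a and Brca1 had log2 fold changes of 0.047, 0.00020 and 0.11. The count of lower members was 35 where libraries with the same leading number were summed and 28 where limma-voom took the number as a random block, with medians of -0.085 and -0.032. In limma-voom with quality weights it was 48, with a median of -0.52. The edgeR median was -0.35 against -0.059 over 18577 genes tested. edgeR called 0 members and 0% of all genes, and 4 members (8.16%) were lower at an unadjusted p under 0.05, where 4.44% of all genes were. DESeq2 called 1 member (Ung), where it called 0.145% of all genes lower, and limma-voom called 2 (Gmnn and Ung), where it called 0.0431%. The groups did not overlap for Ung alone, where 1.18% of all genes were lower without overlap. WT replicate 5 was the lowest of the 10 libraries for 41 members, and for 41 members it held under 50% of the mean of WT replicates 1 to 4. That share ran from 1.75% for Exo1 to 104% for Gins4. By class, the medians in all 10 libraries were -0.35 for licensing, -0.40 for firing, -0.37 for polymerases, -0.28 for the clamp class, -0.41 for nucleotide supply, -0.12 for chromatin and -0.46 for repair. The 4 members with an unadjusted p under 0.05 were Gmnn, Ccne2, Pola2 and Ung.

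**Figure D2:**
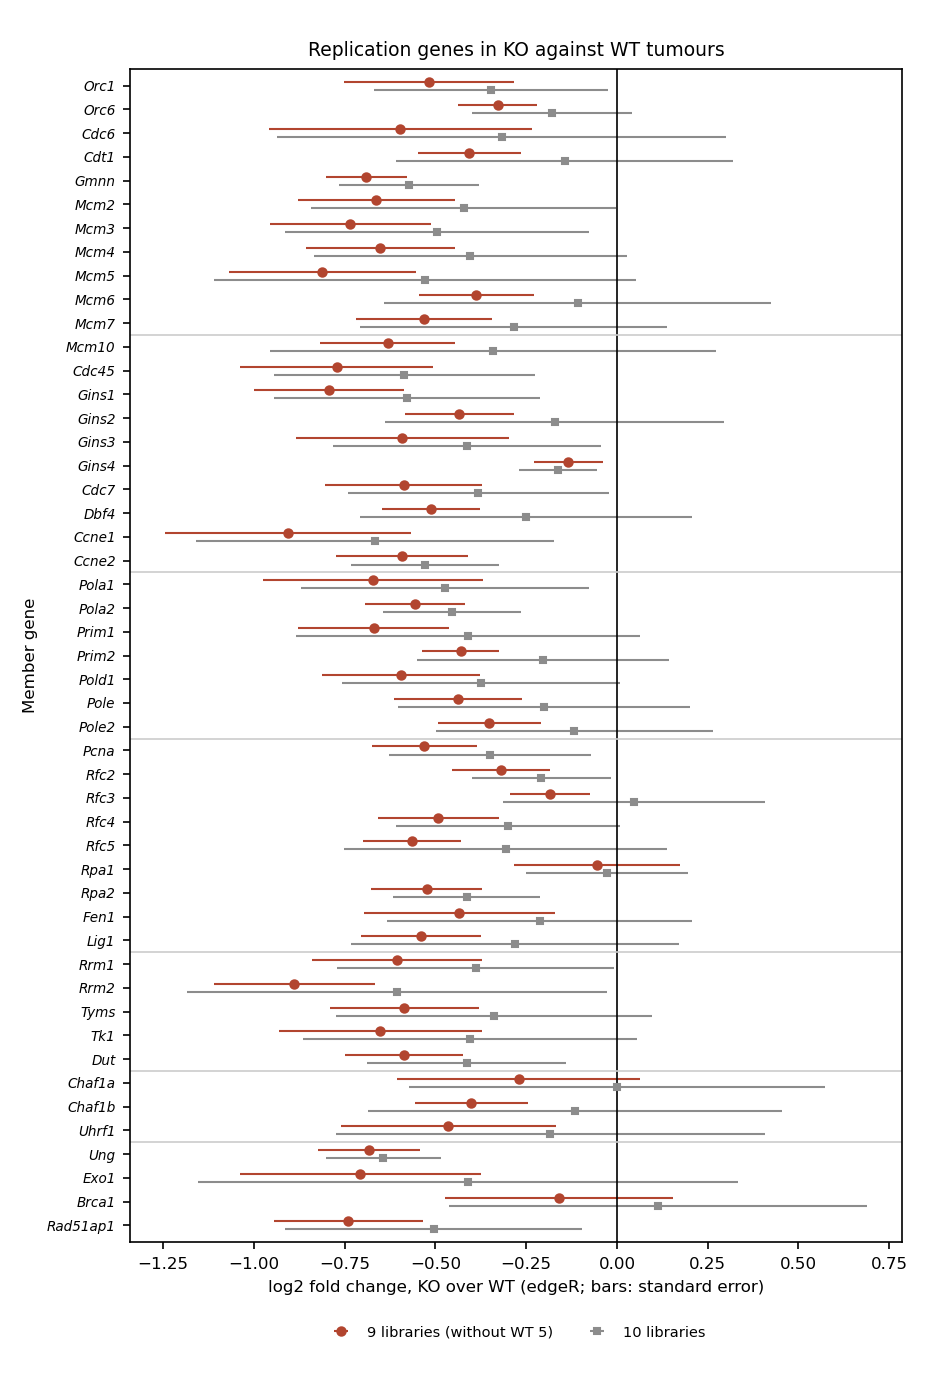
Log2 fold change of each member, KO over WT, from edgeR (x axis; bars are the standard error), by role class from licensing at the top to repair at the bottom. Circles are the 9 libraries without WT replicate 5 and squares all 10 libraries; all 49 circles lie below 0, and 46 squares do.

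The libraries differed within each group as well as between groups. KO replicates 3 and 4, which share the leading number of their names, were the 2 lowest of the 9 libraries for 37 members. KO replicate 4 was the lowest for 38 members and KO replicate 3 for 8. KO replicate 5 was the highest KO library for 32 members. Among WT replicates 1 to 4, replicate 1 was the lowest for 43 members. KO replicate 5 was at or above WT replicate 1 for 24 members, and KO replicate 1 for 15. All 5 KO libraries lay below WT replicates 2, 3 and 4 for 39 members. Among the 9 libraries the spread was wider in KO, where the median coefficient of variation of the members was 21.4%, against 14.2% in WT replicates 1 to 4. The KO value was the larger for 36 of the 49. With WT replicate 5 included, the summed level of the members had an SD of 348 CPM in KO and 833 CPM in WT. Without KO replicates 3 and 4, an alternative chosen after the data were seen, 46 of the 49 stayed below 0 with a median of -0.38. Of the members, 29 were lower at an unadjusted p under 0.05, where 2137 of 19209 genes passed that level in either direction.

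**Figure D3:**
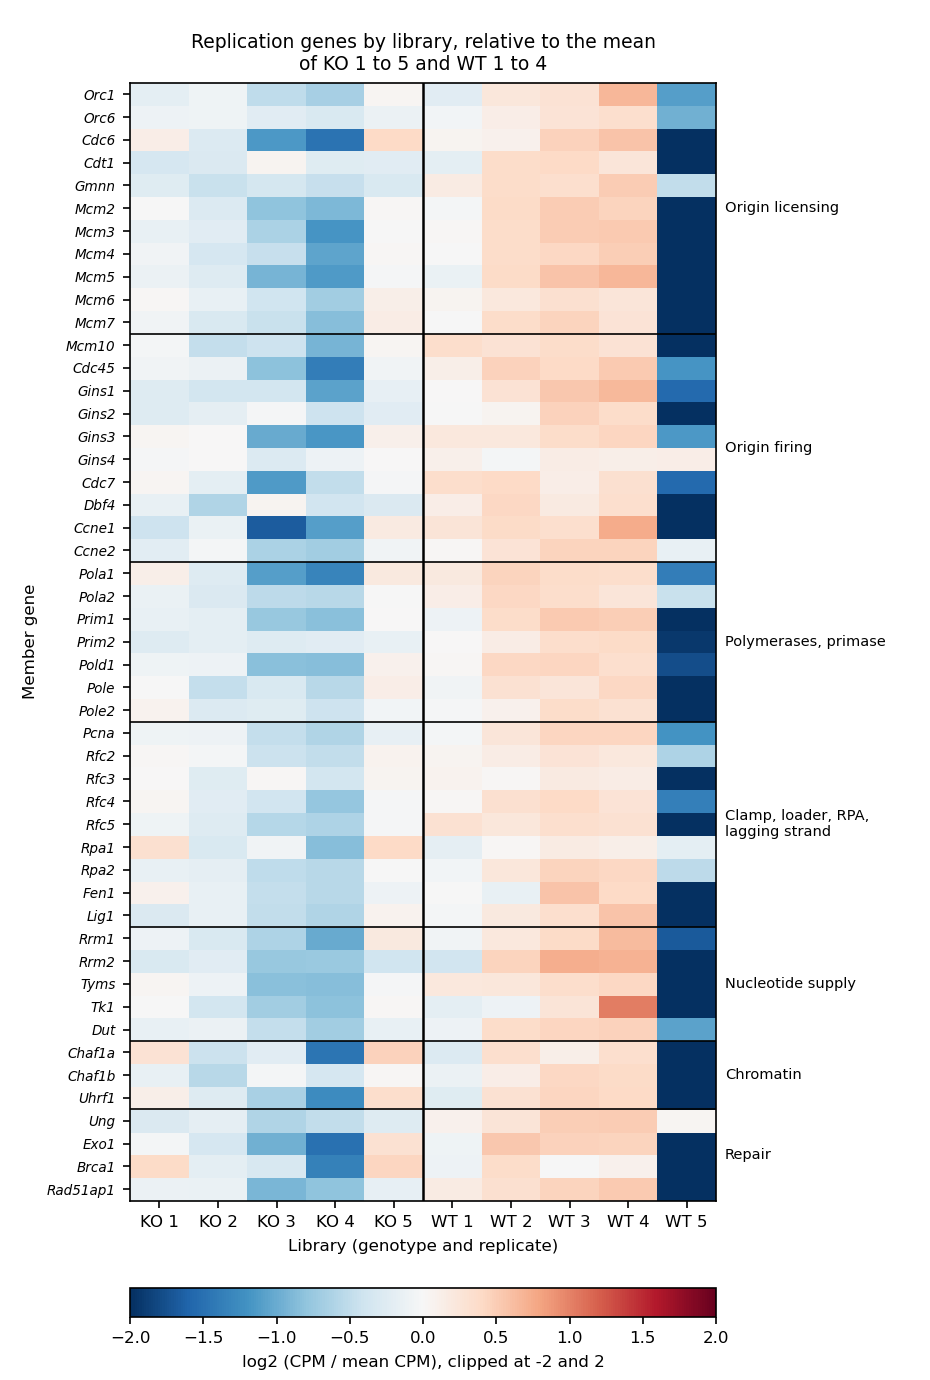
Level of each member (rows, by role class) in each library (columns), as log2 of its CPM over its mean CPM in KO replicates 1 to 5 and WT replicates 1 to 4, from the scaling of all 10 libraries and clipped at -2 and 2. KO 3 and KO 4 are the bluest KO columns, WT 2 to WT 4 are red for most genes, and WT 5 is the lowest library for 41 members.

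In the 9 libraries, all 11 origin licensing genes had a log2 fold change below 0, with a median of -0.60. Of the 11, 9 were lower at an unadjusted p under 0.05, where 5.85% of all genes were. Their sum was 548, 492, 406, 329 and 597 CPM in KO replicates 1 to 5, against 565, 707, 774 and 769 CPM in WT replicates 1 to 4. KO replicate 5 was above WT replicate 1, and the other KO libraries were below every WT library.

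Gmnn encodes geminin, which binds Cdt1 and blocks a further round of licensing. It had 16.01, 14.1, 14.9, 13.9 and 15.4 CPM in KO replicates 1 to 5, against 20.9, 24.2, 23.9 and 27.0 CPM in WT replicates 1 to 4. The KO libraries lay close to each other, and none reached a WT library. The log2 fold change was -0.69 ± 0.11 (SE), with an edgeR adjusted p of 0.138, a DESeq2 adjusted p of 1.71e-07 and a 2-sided exact permutation p of 0.0159, the smallest that 5 libraries against 4 can give. With WT replicate 5, at 12.7 CPM in the scaling of all 10 libraries and below every KO library, the fold change was -0.57 ± 0.19 with an edgeR adjusted p of 0.669. Cdt1, the partner that geminin binds, averaged 26.5 ± 2.98 CPM in KO and 35.1 ± 6.07 CPM in WT, a log2 fold change of -0.41 with an edgeR adjusted p of 0.343.

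The Mcm2 to Mcm7 genes encode the subunits of the replicative helicase. Mcm3 had 53.0, 51.0, 37.9, 26.4 and 59.0 CPM in KO replicates 1 to 5, against 59.5, 74.97, 83.4 and 84.8 CPM in WT replicates 1 to 4. The highest KO library lay just under the lowest WT library. Its log2 fold change was -0.73 ± 0.22, with an edgeR adjusted p of 0.316. Mcm4 had 64.9, 54.8, 49.5, 33.2 and 69.8 CPM in KO, against 67.5, 87.2, 91.2 and 96.3 CPM in WT. KO replicate 5 exceeded WT replicate 1, and the fold change was -0.65 ± 0.20 with an edgeR adjusted p of 0.317. Mcm5 had the lowest log2 fold change of the class, -0.81 ± 0.26, with 33.2 to 71.5 CPM in KO and 65.2 to 114 CPM in WT. Mcm6 had the smallest change of the 6 subunits, at -0.39 ± 0.16.

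Per kilobase of exon, Mcm6 was the most abundant subunit, at 24.4 CPM per kb in KO and 32.0 CPM per kb in WT. Mcm2 was the least abundant, at 6.2 CPM per kb in KO and 9.81 CPM per kb in WT. Length here is that of all annotated exons together, 6956 bases for Mcm2 against 3589 to 4666 bases for the other subunits. Without division by length Mcm2 was also lowest, at 43.1 CPM in KO and 68.2 CPM in WT. It then lay close to Mcm3, at 45.5 CPM in KO and 75.7 CPM in WT. Of the summed level per kb of the 6 genes, Mcm6 made up 27.9% in KO and 24.1% in WT, and Mcm5 15.4% in KO and 17.9% in WT. Exon lengths came from an annotation of GRCm38, whereas the counts were made on GRCm39, and these shares carry no test.

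The origin recognition subunits and Cdc6 together recruit the helicase, and the groups overlapped for Orc6, Orc1 and Cdc6. Orc6 averaged 30.0 ± 1.91 CPM in KO and 37.7 ± 4.72 CPM in WT, with the highest KO library at 31.9 CPM and the lowest WT library at 31.7 CPM. Orc1 averaged 4.73 ± 0.93 CPM in KO and 6.78 ± 1.71 CPM in WT. Cdc6 had the widest spread of the class, with 20.9, 15.8, 8.56, 6.87 and 25.03 CPM in KO replicates 1 to 5 and 19.4, 19.8, 26.0 and 28.1 CPM in WT replicates 1 to 4. KO replicates 1 and 5 lay inside the WT range, and the log2 fold change of -0.60 ± 0.36 had an edgeR adjusted p of 0.55.

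**Figure D4:**
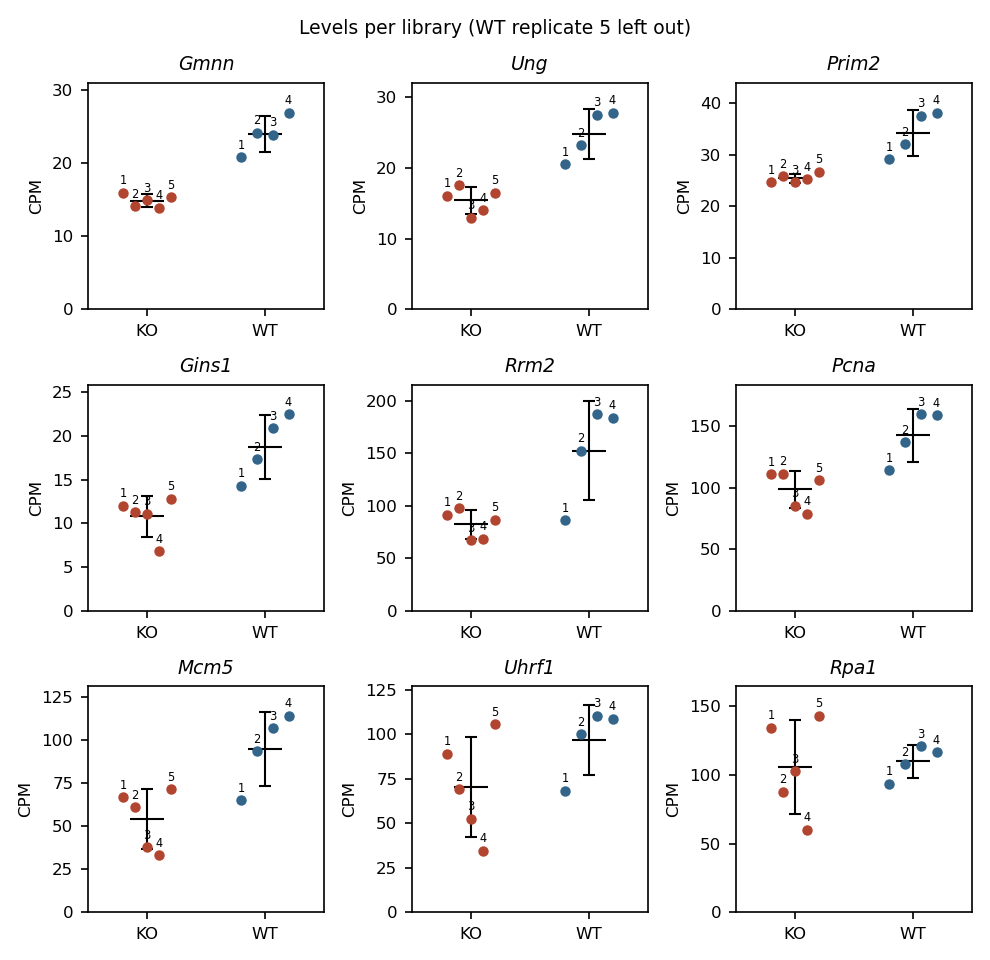
CPM (y axis) of 9 members in KO replicates 1 to 5 (left) and WT replicates 1 to 4 (right), with replicate numbers beside the points and the mean ± SD in black. Gmnn, Ung, Prim2, Gins1 and Pcna have all KO points below all WT points, Rrm2 and Mcm5 overlap through WT replicate 1 alone, and Uhrf1 and Rpa1 overlap more widely.

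In the 9 libraries, 9 of the 10 origin firing genes had groups that did not overlap, all with KO below WT, where this held for 3.44% of all genes. In all 10 libraries, 0 of the 10 did. All 10 genes were below 0, and the median log2 fold change was -0.59. The sum was 177, 165, 143, 129 and 183 CPM in KO replicates 1 to 5, against 211, 227, 234 and 247 CPM in WT replicates 1 to 4. Every KO library lay below every WT library.

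Gins1 encodes a subunit of GINS, the complex that completes the active helicase. It had 12.0, 11.3, 11.1, 6.87 and 12.9 CPM in KO replicates 1 to 5, against 14.3, 17.4, 20.9 and 22.5 CPM in WT replicates 1 to 4. KO replicate 4 was far below the other KO libraries, and the groups did not overlap. Its log2 fold change was -0.79 ± 0.21, with adjusted p values of 0.287 in edgeR and 0.0224 in DESeq2. The other GINS genes differed in size of change, with log2 fold changes of -0.43 for Gins2, -0.59 for Gins3 and -0.13 for Gins4. Gins4 was the member of the class whose groups overlapped, with 30.7 to 37.7 CPM in KO and 35.5 to 41.1 CPM in WT, and the only member for which WT replicate 5 was not below the other WT libraries on average, at 104% of the mean of WT replicates 1 to 4. Of the annotated exon bases of Gins2, 67.3% are also covered by Gse1 on the opposite strand, and whether the counting used strand was not given in the sources used here.

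Dbf4 activates the kinase Cdc7. It had 32.8, 24.3, 38.0, 28.4 and 30.1 CPM in KO replicates 1 to 5, against 39.5, 47.8, 41.4 and 46.4 CPM in WT replicates 1 to 4. Here KO replicate 3 was the highest KO library, unlike in most of the set. The fold change was -0.51 ± 0.14, with adjusted p values of 0.287 in edgeR and 0.0327 in DESeq2. Cdc7 itself had 9.95 to 22.4 CPM in KO and 23.9 to 28.2 CPM in WT, without overlap, and a log2 fold change of -0.59 ± 0.22.

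Mcm10 helps the helicase to open DNA and recruits polymerase alpha. It had 19.1, 14.2, 14.7, 10.4 and 20.2 CPM in KO replicates 1 to 5, against 24.8, 23.5, 25.2 and 23.8 CPM in WT replicates 1 to 4. The WT libraries lay close to each other and above all KO libraries. Its log2 fold change was -0.63 ± 0.19, with an edgeR adjusted p of 0.31. Cdc45, the other helicase cofactor, averaged 12.2 ± 4.23 CPM in KO and 20.8 ± 2.56 CPM in WT, a log2 fold change of -0.77 ± 0.27.

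The cyclin E genes drive entry into S phase. Ccne1 had the lowest log2 fold change of the whole set, -0.91 ± 0.34, with 8.30, 10.2, 3.51, 5.19 and 12.6 CPM in KO replicates 1 to 5, against 13.1, 14.3, 13.97 and 18.5 CPM in WT replicates 1 to 4. KO replicate 5 came close to WT replicate 1, and the edgeR adjusted p was 0.369. Ccne2 had 8.80 to 13.9 CPM in KO and 14.2 to 19.2 CPM in WT, a fold change of -0.59 ± 0.18. In all 10 libraries Ccne2 had the value -0.53 ± 0.20, with an edgeR adjusted p of 0.669 and a 2-sided exact permutation p of 0.0318.

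The polymerase and primase genes were below 0 in 7 of 7 cases, with a median of -0.56. Of the 7, 6 were lower at an unadjusted p under 0.05, where 5.85% of all genes were. Pola2, the regulatory subunit of the polymerase alpha complex, had 24.7, 22.5, 18.9, 18.6 and 27.1 CPM in KO replicates 1 to 5, against 29.4, 35.7, 34.7 and 32.0 CPM in WT replicates 1 to 4. The groups did not overlap, and the log2 fold change was -0.56 ± 0.14 with adjusted p values of 0.284 in edgeR and 0.0167 in DESeq2. Prim2, the large primase subunit, had 24.7, 25.8, 24.6, 25.3 and 26.7 CPM in KO, against 29.1, 32.1, 37.6 and 38.2 CPM in WT. Its KO libraries were nearly level, KO replicates 3 and 4 included, with an SD of 0.874 CPM, against 4.39 CPM in WT. The log2 fold change was -0.43 ± 0.11, with adjusted p values of 0.284 in edgeR and 0.00725 in DESeq2.

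Prim1, the small primase subunit that makes the RNA primer, had 37.9, 36.9, 24.8, 23.6 and 42.6 CPM in KO replicates 1 to 5, against 38.6, 53.4, 60.1 and 58.9 CPM in WT replicates 1 to 4. KO replicate 5 lay above WT replicate 1. Its fold change was -0.67 ± 0.21, with an edgeR adjusted p of 0.317. The catalytic subunits Pola1, Pold1 and Pole had log2 fold changes of -0.67, -0.59 and -0.44, and Pole2, an accessory subunit of polymerase epsilon, had -0.35. Pola1 was the widest, with 9.61 to 27.4 CPM in KO and 26.9 to 31.7 CPM in WT.

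The clamp, loader and lagging-strand genes were below 0 in 9 of 9 cases, with a median of -0.49. Of the 9, 6 were lower at an unadjusted p under 0.05, where 5.85% of all genes were. Pcna encodes the sliding clamp that holds polymerases on DNA. It had 111, 111, 85.5, 79.0 and 106 CPM in KO replicates 1 to 5, against 114, 137, 160 and 159 CPM in WT replicates 1 to 4. The highest KO libraries lay just below WT replicate 1. In the fit, Pcna had a log2 fold change of -0.53 ± 0.14, with adjusted p values of 0.295 in edgeR, 0.0528 in DESeq2 and 0.048 in limma-voom. Per kilobase of exon, Pcna was the most abundant of the 49 genes, at 41.1 CPM per kb in KO and 59.4 CPM per kb in WT.

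Rfc5, a subunit of the clamp loader, had 44.5, 39.8, 31.9, 31.1 and 46.5 CPM in KO replicates 1 to 5, against 57.2, 54.5, 59.3 and 58.2 CPM in WT replicates 1 to 4. The gap between the groups was wider than the range of the WT libraries. Its log2 fold change was -0.56 ± 0.13, with adjusted p values of 0.28 in edgeR and 0.0179 in DESeq2. The other small loader subunits had log2 fold changes of -0.32 (Rfc2), -0.18 (Rfc3) and -0.49 (Rfc4).

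The subunits of RPA, which coats single-stranded DNA, did not share 1 value. Rpa2 had 32.4, 31.8, 25.2, 24.6 and 35.8 CPM in KO replicates 1 to 5, against 34.2, 41.5, 48.9 and 47.9 CPM in WT replicates 1 to 4. KO replicate 5 exceeded WT replicate 1, and the fold change was -0.52 ± 0.15 with an edgeR adjusted p of 0.302. Rpa1 had 134, 87.7, 103, 60.1 and 143 CPM in KO, against 93.4, 108, 121 and 116 CPM in WT. KO replicates 1 and 5 were the 2 highest of the 9 libraries and KO replicate 4 the lowest. The log2 fold change of Rpa1 was -0.055 ± 0.23, with an edgeR adjusted p of 0.945, and it was 0.094 without KO replicate 4. The difference between the 2 subunits was not tested.

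Lig1, the ligase that joins Okazaki fragments, averaged 56.3 ± 10.6 CPM in KO and 81.8 ± 14.8 CPM in WT, a log2 fold change of -0.54 ± 0.16. Fen1, the flap nuclease of the same step, had only 15 to 30 counts in KO libraries and 25 to 52 counts in WT replicates 1 to 4. It was the least abundant member per kilobase, and in the GRCm38 annotation 84.2% of its exon bases lie under Gm10143 on the opposite strand. The Fen1 value of -0.43 ± 0.26 is therefore uncertain.

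In the 9 libraries, all 5 nucleotide supply genes were lower at an unadjusted p under 0.05, where 5.85% of all genes were. In all 10 libraries 0 of the 5 were, where 4.44% of all genes were. The class had the lowest KO sum relative to WT in the 9 libraries, at 62.2%. The sums overlapped, with KO replicates 1 and 5 at 376 and 404.5 CPM and WT replicate 1 at 373.3 CPM. By median log2 fold change the repair class was lower, at -0.695 against -0.607. Rrm2, the S phase subunit of ribonucleotide reductase, had 91.5, 97.7, 67.1, 68.7 and 86.8 CPM in KO replicates 1 to 5, against 86.3, 153, 187 and 184 CPM in WT replicates 1 to 4. WT replicate 1 lay inside the KO range, and the other WT libraries were far above it. The log2 fold change was -0.89 ± 0.22, with adjusted p values of 0.285 in edgeR, 0.0211 in DESeq2 and 0.028 in limma-voom. Rrm1, the large subunit of the same enzyme, had -0.61 ± 0.23, with 75.9 to 174 CPM in KO and 143 to 234 CPM in WT.

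Dut removes dUTP and supplies the precursor of thymidylate. It had 40.0, 41.5, 32.0, 27.8 and 40.5 CPM in KO replicates 1 to 5, against 40.9, 56.4, 59.7 and 61.5 CPM in WT replicates 1 to 4. KO replicate 2 lay just above WT replicate 1, and the log2 fold change was -0.59 ± 0.16 with adjusted p values of 0.296 in edgeR and 0.0475 in limma-voom. Tyms, thymidylate synthase, had 53.4, 48.9, 29.2, 28.9 and 51.6 CPM in KO, against 59.2, 60.1, 66.4 and 69.0 CPM in WT. The groups did not overlap, KO replicates 3 and 4 stood well below the other KO libraries, and the fold change was -0.59 ± 0.20 with an edgeR adjusted p of 0.345. Tk1, the thymidine salvage kinase, had -0.65 ± 0.28, and WT replicate 4, at 104 CPM, lay far above the other WT libraries, at 44.1 to 61.4 CPM.

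The 3 chromatin genes were below 0 with wide error, and 1 was lower at an unadjusted p under 0.05, where 5.85% of all genes were. Chaf1b, a subunit of the CAF-1 histone chaperone, had 31.1, 23.7, 33.8, 27.6 and 35.3 CPM in KO replicates 1 to 5, against 31.5, 37.5, 45.9 and 45.0 CPM in WT replicates 1 to 4. KO replicates 3 and 5 exceeded WT replicate 1, and the fold change was -0.40 ± 0.15, with an edgeR adjusted p of 0.376. Uhrf1, which guides maintenance methylation to replicated DNA, had 89.1, 69.2, 52.6, 34.7 and 106 CPM in KO, against 68.3, 99.9, 111 and 109 CPM in WT. KO replicate 5 lay above WT replicates 1 and 2 and KO replicate 4 far below every WT library, and the fold change was -0.46 ± 0.30 with an edgeR adjusted p of 0.57. Chaf1a, the large CAF-1 subunit, had a log2 fold change of -0.27 ± 0.33, and that value was 0.020 without KO replicates 3 and 4. Of its annotated exon bases, 52.5% are also covered by Ubxn6 on the opposite strand.

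Among the 4 repair genes, Ung had the only groups that did not overlap in all 10 libraries. Ung, the glycosylase that removes uracil from DNA, had 16.1, 17.6, 13.0, 14.1 and 16.5 CPM in KO replicates 1 to 5, against 20.6, 23.2, 27.5 and 27.8 CPM in WT replicates 1 to 4. Without WT replicate 5, the log2 fold change was -0.68 ± 0.14, with adjusted p values of 0.22 in edgeR, 0.00104 in DESeq2 and 0.028 in limma-voom. In the scaling of all 10 libraries, WT replicate 5 held 19.02 CPM of Ung, above the highest KO library at 16.4 CPM. The fold change there was -0.64 ± 0.16, with adjusted p values of 0.669 in edgeR and 0.00522 in DESeq2, and a 2-sided exact permutation p of 0.00794, the smallest that 5 libraries against 5 can give.

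Rad51ap1, which acts in homologous recombination, had 12.7, 12.7, 7.29, 7.93 and 12.4 CPM in KO replicates 1 to 5, against 15.3 to 19.8 CPM in WT replicates 1 to 4. The groups did not overlap, and the log2 fold change was -0.74 ± 0.21 with adjusted p values of 0.296 in edgeR and 0.0347 in DESeq2. Exo1, an exonuclease of mismatch repair, had 15.4, 12.7, 8.14, 5.64 and 19.7 CPM in KO, against 14.7, 22.6, 21.7 and 21.5 CPM in WT. KO replicates 1 and 5 exceeded WT replicate 1, and the fold change was -0.71 ± 0.33 with an edgeR adjusted p of 0.454. Brca1, a mediator of homologous recombination, had 7.03 to 24.3 CPM in KO and 16.5 to 22.6 CPM in WT, and its value of -0.16 ± 0.31 was 0.038 without KO replicate 4.

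Further replication genes outside the 49 were set beside them, and the difference between the lists was not tested. In the 9 libraries, of 15 further genes of origins and firing, 15 were below 0 with a median of -0.26, and 6 had an unadjusted p under 0.05. Of 21 further fork genes, 21 were below 0 with a median of -0.33, and 7 passed that level. The medians were -0.35 for 14 further nucleotide genes (12 below 0, 6 past that level), -0.39 for 8 chromatin genes (8 below 0, 4 past it) and -0.39 for 20 repair genes (17 below 0, 5 past it). Of all genes, 5.85% were lower at that level, or 4.44% with WT replicate 5 included. edgeR called 0 genes of these 5 lists, while DESeq2 called 4 and limma-voom 3 lower (1.42% and 0.505% of all genes). With WT replicate 5 included, the medians of these lists ran from -0.27 to -0.14, at most 1 gene of a list had an unadjusted p under 0.05 in either direction, and all 3 tools called 0 of their genes. Slbp, which binds the end of histone mRNAs, averaged 40.7 ± 5.20 CPM in KO and 58.8 ± 1.80 CPM in WT, a log2 fold change of -0.53 ± 0.11 with an edgeR adjusted p of 0.22. Nasp, a histone chaperone, had -0.55 ± 0.12, and Apex1, the main abasic site nuclease, had -0.62 ± 0.13, and neither overlapped between groups. Ticrr, an essential firing factor, averaged 7.52 ± 2.11 CPM in KO and 13.3 ± 2.29 CPM in WT, a log2 fold change of -0.82 ± 0.23. Cad, which starts pyrimidine synthesis, had -0.56 ± 0.16, and Tipin, a fork protection factor, had -0.61 ± 0.18.

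Mitosis genes, which act after S phase, were set beside the members. Over the 9 libraries all 28 were below 0, with a median log2 fold change of -0.78, and 27 were lower at an unadjusted p under 0.05, where 5.85% of all genes were. Over the 10 libraries all 28 were below 0 with a median of -0.51, 0 had an unadjusted p under 0.05, and all 3 tools called 0. Without WT replicate 5, edgeR called 1 of the 28 lower, where it called 0.0105% of all genes. DESeq2 called 19 and limma-voom 15, all lower, where they called 1.42% and 0.505% of all genes lower. The groups did not overlap for 21, all lower in KO, where this held for 3.44% of all genes. With WT replicate 5 included, it held for 0 of the 28, and for 1.18% of all genes. The gene that edgeR called was Ccnb2, a B-type cyclin of mitotic entry. It had 37.4, 37.3, 40.7, 40.9 and 38.9 CPM in KO replicates 1 to 5, against 64.0, 65.3, 71.1 and 72.9 CPM in WT replicates 1 to 4. Its KO libraries were nearly level, with KO replicates 3 and 4 the highest, and its log2 fold change was -0.81 ± 0.080 with an edgeR adjusted p of 0.0372. The edgeR call was lost when any 1 of the 9 libraries was left out, with values of -0.84 to -0.78. Ccnb1, its paralog, had -0.94 ± 0.13 with an edgeR adjusted p of 0.11.

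The sum of the 49 members over that of the 28 mitosis genes does not depend on the scaling of a library. This ratio was 1.55, 1.54, 1.47, 1.55 and 1.58 in KO replicates 1 to 5, against 1.23, 1.26, 1.39 and 1.30 in WT replicates 1 to 4. The lowest KO library lay above the highest WT library, and KO replicate 4 lay among the other KO libraries, with KO replicate 3 the lowest of them. The mean was 1.54 ± 0.041 in KO (SD, n = 5) and 1.29 ± 0.07 in WT (SD, n = 4). WT replicate 5 had a ratio of 5.16, with 600.3 CPM of the members and 116 CPM of the mitosis genes. The ratio was chosen after the values were seen and carries no test.

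**Figure D5:**
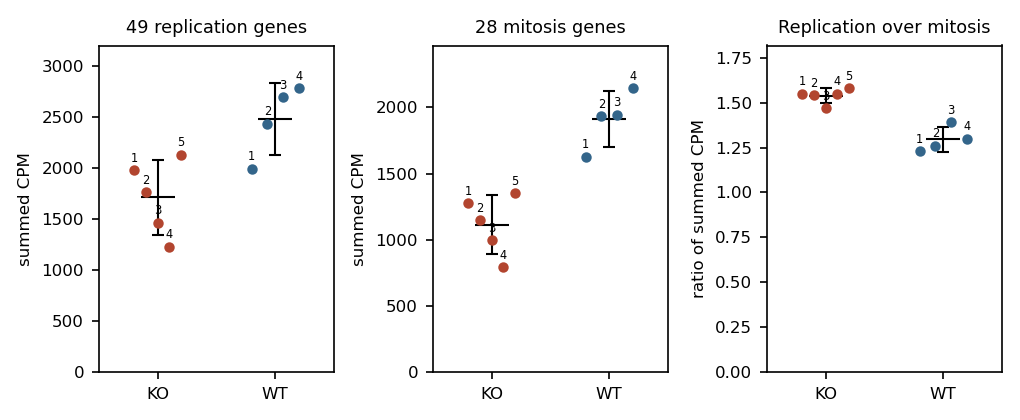
Summed CPM of the 49 replication genes (left), summed CPM of 28 mitosis genes (middle) and their ratio (right) in KO replicates 1 to 5 and WT replicates 1 to 4, with the mean ± SD in black. The ratio was 1.47 to 1.58 in KO and 1.23 to 1.39 in WT, without overlap.

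Among 17 genes of E2F regulation in the 9 libraries, 14 were below 0 with a median of -0.25. Of the 17, 8 were lower at an unadjusted p under 0.05, where 5.85% of all genes were. Mybl2, a transcription factor that is itself an E2F target and acts on mitosis genes, had 10.8, 12.4, 9.14, 8.61 and 13.9 CPM in KO replicates 1 to 5, against 16.8, 23.3, 21.5 and 25.1 CPM in WT replicates 1 to 4. The groups did not overlap, and the log2 fold change was -0.98 ± 0.18 with an edgeR adjusted p of 0.193. E2f8, a repressor that peaks in S phase, averaged 12.5 ± 3.24 CPM in KO and 24.3 ± 3.75 CPM in WT, a log2 fold change of -0.96 ± 0.21. Foxm1, which drives genes of G2 and mitosis, averaged 23.2 ± 3.60 CPM in KO and 34.5 ± 2.71 CPM in WT, a log2 fold change of -0.57 ± 0.13. edgeR called 0 of the 17, DESeq2 4 and limma-voom 2, all lower, where DESeq2 called 1.42% and limma-voom 0.505% of all genes lower. With all 10, 13 were below 0 with a median of -0.31, and all 3 tools called 0. There 1 was lower at an unadjusted p under 0.05, where 4.44% of all genes were.

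Markers of other cell types differed between libraries and, for some lists, between groups. The 20 luminal markers, none of them at 0 in any library, summed to 5674, 6590, 7351, 9405 and 5995 CPM in KO replicates 1 to 5, against 7322, 6176, 6831 and 7170 CPM in WT replicates 1 to 4. KO replicates 3 and 4, the lowest for most members, held the highest luminal sums. Per 100 CPM of luminal markers the members had 34.9, 26.9, 20.0, 13.1 and 35.6 CPM in KO, against 27.3, 39.5, 39.5 and 38.9 CPM in WT. The KO and WT values overlapped through WT replicate 1.

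All 12 adipocyte markers and all 11 tested skeletal muscle markers had log2 fold changes above 0 in the 9 libraries. The adipocyte sum was 84.0, 3387, 168, 2916 and 100.2 CPM in KO, against 33.4, 67.9, 542 and 233 CPM in WT, and Lep was at 0 in KO replicate 5 and WT replicate 2 and Cidec in WT replicate 1. The muscle sum was 93.1, 4.12, 175, 1652 and 5.89 CPM in KO, against 4.90, 5.61, 92.9 and 43.3 CPM in WT. Myh2 and Pvalb were at 0 in KO replicate 5, and Myh1 and Myh2 in WT replicates 1 and 2, with Myh4 also at 0 in WT replicate 1 and Pvalb in WT replicate 2.

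Without WT replicate 5, fibroblast markers (11 of 12 above 0) summed to 3634 to 7523 CPM in KO and 193 to 6113 CPM in WT, with WT replicate 1 the lowest. Endothelial markers (12 of 12 above 0) summed to 230 to 452 CPM in KO and 102 to 347 CPM in WT. With WT replicate 5 the directions turned: 10 of 12 fibroblast, 12 of 12 endothelial, 11 of 12 adipocyte and 11 of 11 muscle markers had log2 fold changes below 0. Across the 9 libraries, neutrophil markers summed to 31.8 to 346 CPM in KO and to 1385 CPM in WT replicate 1, against 22.6 to 117 CPM in WT replicates 2 to 4. S100a8 alone held 1301 CPM in WT replicate 1 and 293 CPM in KO replicate 4. By gene, 6 of the 8 neutrophil markers tested were above 0 and 2 below. Basal markers summed to 235 to 431 CPM in KO and 210 to 856 CPM in WT, and the list was split, with 5 below 0 and 4 above. Their log2 fold changes ran from -1.65 (Krt17) to 1.95 (Cnn1). Macrophage markers (7 below 0 and 5 above) summed to 345 to 589 CPM in KO and 247 to 562 CPM in WT. In all 10 libraries 9 of 9 basal and 11 of 12 macrophage markers were below 0. The 14 markers of T and NK cells summed to 11.9, 13.7, 9.34, 10.8 and 15.8 CPM in KO replicates 1 to 5, against 6.58, 7.29, 8.53 and 7.17 CPM in WT replicates 1 to 4. The KO sums lay above the WT sums, and 10 of the 11 tested were above 0. Among them Il2rb, named after its values were seen, an interleukin receptor subunit of NK and T cells, averaged 2.78 ± 0.55 CPM in KO and 0.94 ± 0.37 CPM in WT, a log2 fold change of 1.56 ± 0.33 with adjusted p values of 0.248 in edgeR, 0.000449 in DESeq2 and 0.0471 in limma-voom. Scaled with all 10 libraries, the sum was 12.4 CPM in WT replicate 5, within the KO range of 8.78 to 14.8 CPM, and 6 of 10 tested were above 0. Gzma was at 0 in WT replicate 3, and Prf1 and Ncr1 in WT replicate 1. B and plasma cell markers summed to 1.08 to 10.9 CPM in KO and 1.52 to 4.14 CPM in WT. The part of these cell types in the levels of the replication genes was not tested.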

How the data were processed

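Counts per gene for 10 whole-tumour libraries were used as the authors deposited them, whole numbers with no normalization, 1 column per library and 0 columns without a sample. Per the submitters' processing notes, FastQC, STAR, featureCounts and DESeq2 were used with GRCm39. Their versions, the annotation, the strand setting and how multimapping reads were handled were not given in the sources used here. Per the labels' protocols, libraries were stranded and poly(A)-selected. Genes were matched by symbol (52029 of 57010 had one).

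KO was compared with WT in edgeR 4.0.16 (R 4.3.3; quasi-likelihood F-test, robust, TMM scaling, filterByExpr) over all genes that passed the filter, with Benjamini-Hochberg adjustment and a call under 0.05. A standard error is the log2 fold change divided by the square root of F. CPM used the scaled libraries of the same fit. Exact permutation tests were 2-sided, on mean log2 CPM. The labels name no animals, and p-values reflect only the spread among these libraries, which may be partly technical. Libraries that share a leading number may not be independent, whereas the p-values and SDs by library treat them as if they were. The scripts were tested on simulated data.

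Alternatives were RLE scaling, unscaled sizes, luminal marker counts as library size, DESeq2 1.42.0, limma-voom 3.58.1 with quality weights, 2 other low-count filters, sums or a random block by the leading number of the library name, and each library left out. The members and lists were chosen with earlier results of these data known. Named were Rhbdd1, of each class the 3 members with the smallest p without WT replicate 5, the 3 with the smallest p in all 10 libraries, and 3 genes of each pathway list; other members serve as examples of their class. Leaving out KO replicates 3 and 4 together was added after the data were seen. Promoters and proximity to other genes came from RefSeq and GENCODE tables of GRCm38, used for sequence, exon length and overlap only.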

Additional observations from a re-analysis of the deposited data

Results flagged for a closer look

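In the 5 WT libraries, WT replicate 5 lay apart below the other 4 for 6 of the members named and for 1 class. The gap from WT replicate 5 to the next library, as a share of the whole range of the group, was 0.804 for Dbf4, 0.944 for Mcm10, 0.712 for Prim2, 0.923 for Rfc5, 0.845 for Tyms, 0.736 for Rad51ap1 and 0.786 for the summed level of the origin firing class, where 0.71 is the 95% limit for 5 samples. Among WT replicates 1 to 4, replicate 1 lay apart below the others for Exo1, with a share of 0.85, and for the summed level of the repair class, with 0.88, where the limit for 4 samples is 0.829. In the 5 KO libraries, 0 of the 31 values examined passed the limit, beside 2 of 31 in WT replicates 1 to 4 and 7 of 31 in the 5 WT libraries. Chance flags about 1 in 20 groups that are independent. The values here share libraries, and class sums contain named members. Most of the members were also picked for a small p without WT replicate 5. The counts therefore cannot be set against that rate.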

How the results depend on the processing

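In the 9 libraries the median log2 fold change of the members stayed below 0 under every alternative, from -0.66 to -0.47 with 1 library left out. It was -0.51 with luminal marker counts as library size, where 48 members were below 0. Only 6 of them had an unadjusted p under 0.05 there, where 1101 of 19016 genes did in either direction. Members without overlap were 18 with TMM and 1 with luminal counts. With 1 library left out they were 17 to 39, the highest without WT replicate 1, and 28 without KO replicate 5. No share of all genes is given beside these alternatives. Leaving out a library makes it easier for any gene not to overlap, so those counts cannot be set against 18. edgeR called 0 members under each scaling, filter and left-out library, DESeq2 9 and limma-voom 7, or 0 with the leading number as a block. The 2 genes called over all genes were 1 with unscaled sizes, 0 with luminal counts, 0 with sums per leading number, 0 with that number as a block, 0 without KO replicates 3 and 4, 0 to 1 with 1 library left out, 433 with DESeq2 and 143 with limma-voom. In all 10 libraries the 0 genes called were 50 with DESeq2, 17 with limma-voom and 0 to 2 with 1 library left out, and the 0 members called were 1 and 2 with those tools. There the median of -0.35 ranged from -0.56 to -0.23 with 1 library left out, was -0.085 with sums per leading number and -0.032 with the block, and was -1.67 with luminal counts, a scaling that put the median of all genes at -2.75, since WT replicate 5 has few luminal counts. It was -0.52 in limma-voom with quality weights. In that fit 39 members were lower at an unadjusted p under 0.05, which 3491 of 18577 genes passed in either direction. Unscaled sizes put the median of all genes at 0.070 (-0.059 with TMM). The 1 member without overlap became 0 with unscaled sizes and 1 to 18 with 1 library left out. The highest count was without WT replicate 5, where 3.44% of all genes were lower without overlap. Signs turned for Rpa1 (0.018 with luminal counts, 0.013 with sums per leading number, 0.15 without KO replicates 3 and 4, and -0.19 to 0.094 with 1 library left out), Brca1 (0.033 in limma-voom, 0.16 without KO replicates 3 and 4, 0.11 in all 10 libraries, and -0.33 to 0.038 with 1 library left out), Chaf1a (0.020 without KO replicates 3 and 4, 0.00020 in all 10 libraries) and Rfc3 (0.047 in all 10 libraries), and the cause was not tested. No paired analysis was possible because the replicate numbers follow accession order and the library names share no number between KO and WT.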
